A study of Homo sapiens with 18 samples.

Results

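The 46 interferon-stimulated genes described here are a list of genes that interferon signalling is known to raise, chosen by gene symbol with earlier results of these data known. All 46 stand among the 15896 genes of the deposited table and all 46 were among the 13417 genes tested. They were measured by sequencing of polyadenylated RNA from the human keratinocyte line N/TERT2G, which is immortalized. The cells received an adenovirus 1 day after plating at a multiplicity of infection of 25. In the 9 Ad-GFP libraries, the controls, the virus carried green fluorescent protein, and in the 9 Ad-TEADi libraries it carried TEADi, a green fluorescent protein joined to TEAD-binding domains that keeps YAP1 and TAZ from the TEAD transcription factors. RNA was taken at 12, 24 and 48 h after transduction, with 3 libraries for each virus and time. Every group received a virus, so the level of these genes in cells without virus was not measured, and hours since transduction and hours in culture cannot be told apart.

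Interferons are secreted when cells sense foreign nucleic acid, such as that of a virus. Bound to their receptors, type I and type III interferons activate JAK kinases and a complex that holds STAT2 and IRF9, which binds a promoter sequence called the interferon-stimulated response element (ISRE) and raises many genes whose products hinder viral replication. Keratinocytes, as a barrier cell type, make and answer such signals, and the response is held in time by feedback proteins such as USP18 and SOCS1.

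The ISRE is the sequence that the members are known for, so promoter windows were searched for it. RefSeq windows (build GRCh38.p14, 250 bases before to 50 after each listed start) were found for 39 of the 46 members, DDX58 under its current symbol RIGI. The letters searched for were GAAA, any 2 bases and again GAAA. They were searched on both strands, with overlapping matches counted. They were found in 26 of the 39 members (66.7%) and in 4.38% of all 27305 genes in the promoter table. A match to a GAS-type element, TTCNNNGAA, was found in 13 of the 39 members (33.3%) against 9.38% of genes, and the TEAD motif letters GGAATG in 7 of them (17.9%) against 16.7% of genes. Some GAS-type matches share bases with an ISRE match, as in BST2 and EPSTI1, so the counts of these elements are not separate. IRF7, IFIT2, OAS2, OASL, MX2, USP18 and TRIM22 were not matched. The following 60-base windows, all of them before the start and written 5′ to 3′ on the strand of the gene, show the ISRE letters in capitals for members that carry the main results below.
ISG15, chr1:1013362-1013421, plus strand: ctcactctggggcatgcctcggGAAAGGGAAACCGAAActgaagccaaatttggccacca
IFIT1, chr10:89392488-89392547, plus strand: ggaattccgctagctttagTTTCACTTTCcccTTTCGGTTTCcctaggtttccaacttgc
IFIT3, chr10:89327833-89327892, plus strand: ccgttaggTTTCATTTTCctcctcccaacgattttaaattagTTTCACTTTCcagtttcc
IFIT5, chr10:89414508-89414567, plus strand: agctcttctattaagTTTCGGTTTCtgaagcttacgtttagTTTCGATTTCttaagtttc
RSAD2, chr2:6877607-6877666, plus strand: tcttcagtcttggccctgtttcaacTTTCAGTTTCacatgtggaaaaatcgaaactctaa
IFI27, chr14:94110609-94110668, plus strand: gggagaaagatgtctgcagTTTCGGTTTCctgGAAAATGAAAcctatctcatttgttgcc
IFI6, chr1:27672262-27672321, minus strand: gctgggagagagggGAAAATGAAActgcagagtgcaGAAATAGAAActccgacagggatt
BST2, chr19:17405723-17405782, minus strand: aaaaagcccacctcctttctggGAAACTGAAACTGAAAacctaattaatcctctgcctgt
DDX60, chr4:168318789-168318848, minus strand: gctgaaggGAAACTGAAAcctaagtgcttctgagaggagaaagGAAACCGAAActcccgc
Each sequence is 1 window of the gene in that table, which gives IFIT3 and IFI27 windows for 2 starts. A run of adjoining capitals, as in ISG15 and BST2, holds 2 overlapping matches. A match describes the letters only, and binding was not measured.

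The sequencing depth was 14.2 M to 26.7 M reads for each library (M, mega), estimated from the smallest steps in the deposited values. Levels below are the deposited normalized values in CPM, a gene's reads scaled by library size and a trimmed mean of M values (TMM) factor. Their sum over the listed genes ran from 851071 (Ad-TEADi 12 h replicate 3) to 943329 (Ad-GFP 48 h replicate 1). Changes are log2 ratios ± SE from limma after 1 CPM was added to each value. This makes the changes of low genes smaller than the ratio of their levels. A rise or a fall means that the Benjamini-Hochberg adjusted p over all 13417 genes was under 0.05 and the fold change at least 1.5. The labels do not say that the libraries of a group came from separate cultures, so p-values measure the spread between these libraries. The 8 keratinocyte markers searched, such as KRT5 and KRT14, were all in the table and summed to between 18287 and 42220 CPM. Of markers of other cell types, 4 of 7 for fibroblasts, 3 of 7 for immune cells, 2 of 6 for melanocytes, 2 of 4 for endothelial cells and 1 of 4 for plasmacytoid dendritic cells were in the table. PTPRC, LYZ and PDGFRA, among others, were searched for and were not in the table. In bulk RNA, fewer responding cells and less RNA for each cell cannot be told apart.

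The members were highest at 12 h and lower at 24 h with either virus. Their summed level lay between 9298 and 10126 CPM in the Ad-GFP libraries at 12 h, between 3437 and 3878 CPM at 24 h and between 4222 and 4611 CPM at 48 h. In the Ad-TEADi libraries it lay between 6833 and 8861 CPM at 12 h, between 3291 and 5090 CPM at 24 h and between 4164 and 4597 CPM at 48 h. Neither virus had a 12 h library below any of its later ones. For each library the median over the members of the log2 difference from each gene's mean was also taken. This level was 0.87, 0.89 and 1.03 in Ad-GFP at 12 h and 0.42, 0.81 and 0.61 in Ad-TEADi at 12 h. At 24 h it was -0.58, -0.42 and -0.67 in Ad-GFP and -0.07, -0.46 and -0.69 in Ad-TEADi. At 48 h all 6 libraries lay between -0.37 and -0.20. Replicate 1 of Ad-TEADi at 24 h thus stood above the other 24 h libraries, and replicate 1 of Ad-TEADi at 12 h below the other 12 h libraries. CTGF, a target of TEAD, was at 23.9, 14.3 and 13.6 CPM in the 3 Ad-TEADi libraries at 24 h, highest in the same replicate 1. In Ad-GFP it was at 66.98, 58.5 and 58.99 CPM. At 12 h CTGF was at 51.7, 53.3 and 52.2 CPM in Ad-TEADi, so replicate 1 did not stand apart there. A link between CTGF and the members was not tested. Several results that rest on replicate 1 of Ad-TEADi at 12 h or 24 h are given with and without it.

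**Figure D1:**
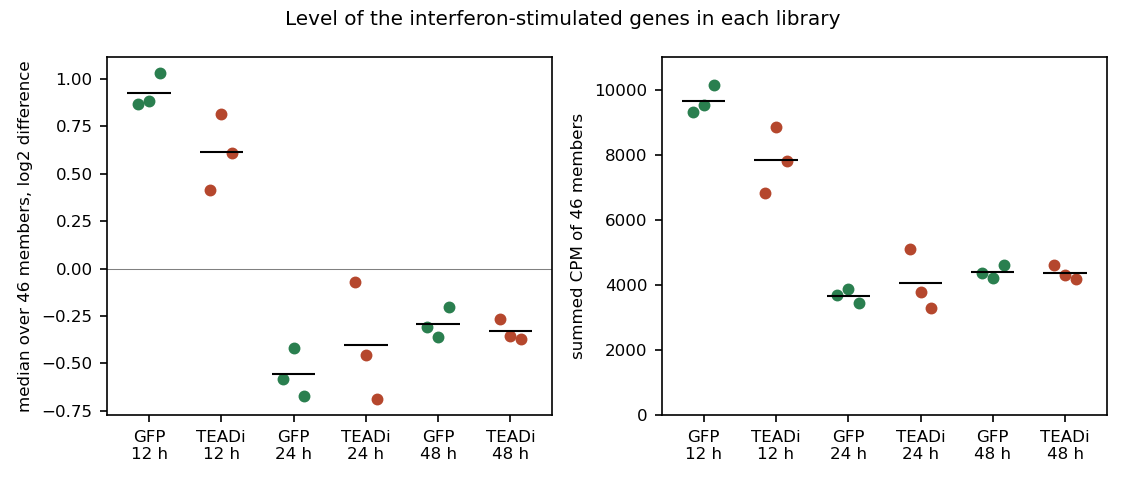
Level of the 46 interferon-stimulated genes in each of 18 libraries, by virus and time. The left panel gives the median over members of the log2 difference from each gene's mean over all libraries, the right panel the summed CPM, and each dot is 1 library with a line at the group mean. The 12 h libraries lie above 0.4 on the left and all later libraries below 0.

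In Ad-GFP cells, all 46 members fell from 12 h to 24 h, where 2.5% of all tested genes fell and 1.77% rose. The median log2 change was -1.47, against 0.04 over all genes, and the range ran from -3.16 for IFI30 to -0.68 for EIF2AK2. The groups did not overlap for any of the 46, a separation in this direction seen in 18% of all genes. As CPM, the level left at 24 h was 35.8% of the 12 h level in the median member, from 3.27% for IFI30 to 62.3% for EIF2AK2. All 46 remained called whichever single library was left out. The summed CPM of the fibroblast markers was also lower at 24 h (17.97 to 20.4) than at 12 h (39.9 to 43.1), as was that of the immune markers (16.4 to 22.4 against 35.0 to 41.7), while that of keratinocyte markers was higher (21389 to 22109 against 18356 to 19424). These markers' part in the fall was not tested.

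**Figure D2:**
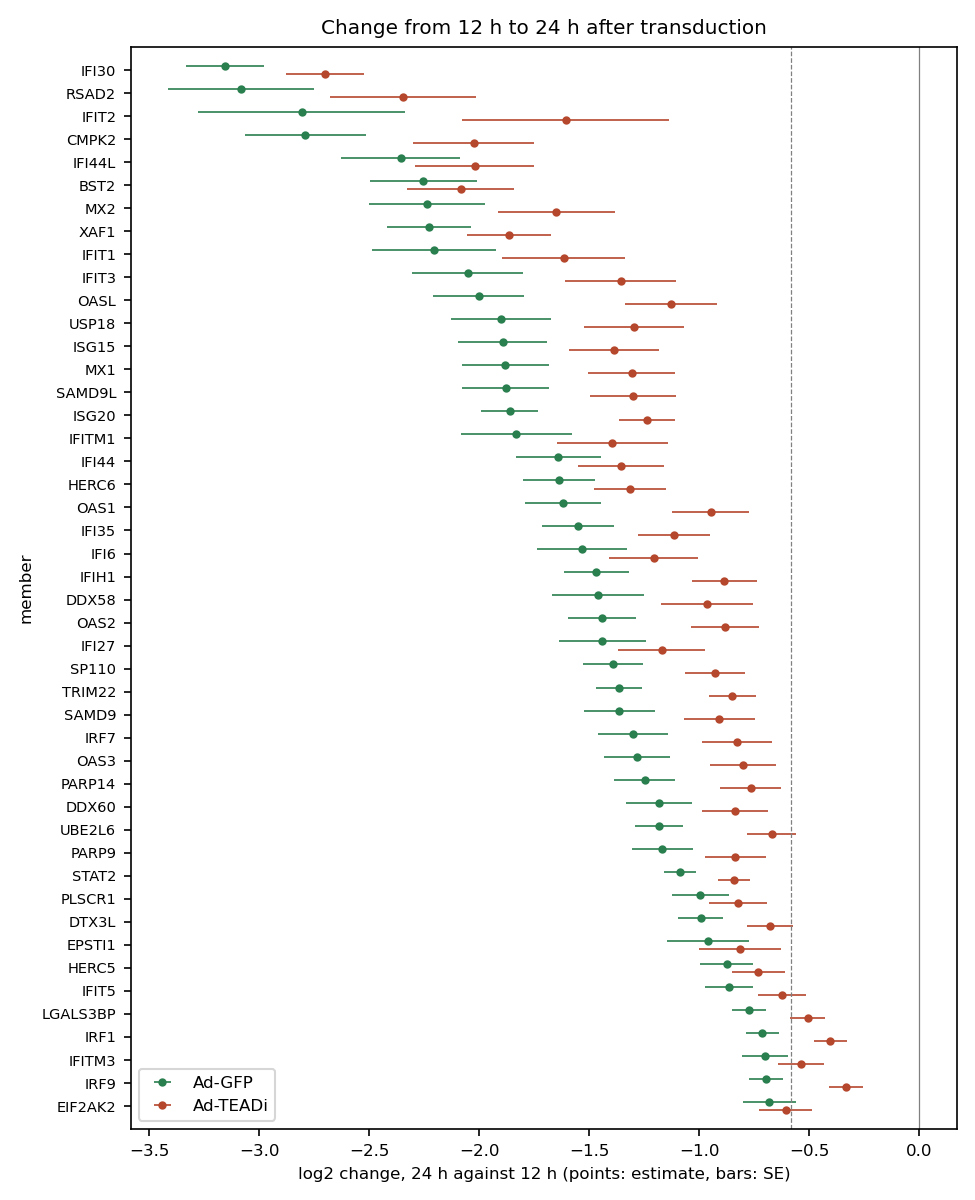
Log2 change of each of the 46 members from 12 h to 24 h (horizontal axis) in Ad-GFP and Ad-TEADi cells, as estimate ± SE from limma with 3 libraries in each group. All points lie below 0, the dashed line marks a fall of 1.5-fold, and the Ad-GFP estimate is the more negative of the pair for all 46 members.

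The sensors of viral RNA were among the members that fell. IFIH1, the sensor of long double-stranded RNA, was at 93.8, 114 and 128 CPM in the Ad-GFP libraries at 12 h, at 38.00, 43.7 and 37.3 CPM at 24 h and at 43.8, 44.7 and 42.5 CPM at 48 h. Its log2 change to 24 h was -1.47 ± 0.15 (adjusted p = 5.8e-06), and its change from 24 h to 48 h was not called (0.14 ± 0.15, adjusted p = 0.475). DDX58, known as RIG-I, a sensor of the free ends of viral RNA, was at 150.2, 179.8 and 206 CPM at 12 h, at 55.9, 80.4 and 57.7 CPM at 24 h and at 73.7, 68.4 and 65.8 CPM at 48 h. Every later library of DDX58 was below every 12 h library, with a change to 24 h of -1.46 ± 0.21 (adjusted p = 1.3e-04). DDX60, a helicase linked to DDX58 signalling, was at 151, 163 and 169 CPM at 12 h, 70.04, 77.7 and 63.7 CPM at 24 h and 87.8, 93.2 and 105 CPM at 48 h. It fell by 24 h (-1.18 ± 0.15, adjusted p = 4.8e-05) and was -0.75 ± 0.15 from its 12 h level at 48 h (adjusted p = 8.4e-04).

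The 4 transcription factors fell least, with a median log2 change to 24 h of -0.90. STAT2, part of the complex that binds the ISRE, was at 171, 184 and 196 CPM at 12 h, at 82.1, 92.9 and 82.8 CPM at 24 h and at 118, 111 and 110.5 CPM at 48 h. It fell by 24 h (-1.09 ± 0.07, adjusted p = 2.2e-10), and its 3 libraries at 48 h lay between those of the earlier times. IRF7, a driver of interferon gene transcription, was at 71.9, 72.7 and 73.2 CPM at 12 h, 28.3, 30.6 and 27.7 CPM at 24 h and 39.9, 34.2 and 36.3 CPM at 48 h. Its fall to 24 h was -1.30 ± 0.16 (adjusted p = 3.3e-05). IRF1, a factor induced by several cytokines, was lower still at 48 h, with 42.6, 47.6 and 47.7 CPM at 12 h, 29.1, 27.7 and 26.1 CPM at 24 h and 24.1, 23.3 and 20.5 CPM at 48 h. Its log2 change was -0.71 ± 0.07 to 24 h and -0.99 ± 0.07 to 48 h (adjusted p = 4.3e-09 and 6.8e-13). IRF9, the DNA-binding partner of STAT2, fell to 24 h (-0.70 ± 0.08), but its difference of -0.33 ± 0.08 at 48 h from 12 h was under 1.5-fold.

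The 10 members that act on viral RNA had a median change of -1.74 to 24 h. IFIT1, which binds RNA with a foreign cap, was at 259.7, 280.2 and 323 CPM at 12 h, at 54.7, 84.9 and 49.6 CPM at 24 h and at 81.7, 75.4 and 77.7 CPM at 48 h. Its change to 24 h was -2.21 ± 0.28 (adjusted p = 5.1e-05). The neighbouring IFIT2 was at 62.5, 115 and 141 CPM at 12 h and 12.9, 13.1 and 14.5 CPM at 24 h. Its 12 h libraries spread more widely, as a ratio, than those of any other member, and it changed by -2.81 ± 0.47. IFIT5, in the same cluster, changed by -0.86 ± 0.11, from 58.2, 56.8 and 63.1 CPM to 33.8, 36.04 and 27.2 CPM. IFIT1, IFIT2 and IFIT3 lie inside the listed span of LIPA on the opposite strand, and the sources used here do not say whether the counting used strand. LIPA itself changed by -0.01 ± 0.05 from 12 h to 24 h (adjusted p = 0.911). OAS2, an enzyme that makes a second messenger when it binds double-stranded RNA, was at 623, 663 and 678 CPM at 12 h, 234, 256 and 231 CPM at 24 h and 267, 264 and 292 CPM at 48 h, a fall to 24 h of -1.44 ± 0.16 (adjusted p = 1.2e-05). ISG20, an exonuclease, had the smallest adjusted p of this group, with 22.7, 19.11 and 21.8 CPM at 12 h, 4.81, 4.89 and 5.59 CPM at 24 h and 9.40, 9.77 and 9.47 CPM at 48 h. OAS3 (-1.28), IFIT3 (-2.05) and the kinase EIF2AK2, which halts translation (-0.68), fell too. ISG20 fell by 24 h (-1.86 ± 0.13, adjusted p = 9.2e-12) and rose again by 48 h (0.79 ± 0.13, adjusted p = 1.2e-05).

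The 8 membrane and nucleotide effectors had the lowest median of the role groups, -2.06 to 24 h. RSAD2, known as viperin, an enzyme that makes a chain-terminating nucleotide, was at 51.1, 63.6 and 88.97 CPM at 12 h, at 7.87, 8.70 and 4.79 CPM at 24 h and at 8.04, 9.04 and 8.18 CPM at 48 h. Its lowest 12 h library was still far above every later one, and its change to 24 h was -3.08 ± 0.33 (adjusted p = 1.2e-05). CMPK2, a nucleotide kinase whose gene overlaps RSAD2 by 831 bases on the opposite strand, was at 56.00, 59.9 and 74.8 CPM at 12 h, 8.27, 11.1 and 6.05 CPM at 24 h and 9.76, 8.47 and 9.43 CPM at 48 h. It fell to 24 h by a like amount (-2.79 ± 0.28, adjusted p = 5.4e-06), and reads from the overlap cannot be told apart without strand. MX1, a GTPase that blocks incoming viruses, was at 792, 841 and 867 CPM at 12 h, at 217, 262 and 200.04 CPM at 24 h and at 271, 259.8 and 297 CPM at 48 h. MX1 fell by 24 h (-1.88 ± 0.20, adjusted p = 9.4e-06), with no overlap between the times. MX2, its paralog, changed by -2.24, and the scramblase PLSCR1 fell less. IFITM3, which hinders fusion of viruses in endosomes, changed least of this group, from 676, 594 and 589.6 CPM to 411, 357 and 374 CPM (-0.70 ± 0.10), while its neighbour IFITM1 went from 202, 168 and 199.8 CPM to 55.2, 54.4 and 48.2 CPM (-1.83 ± 0.25). IFITM1 lies wholly within the listed span of IFITM2 on the same strand, so reads of the pair may be shared, and IFITM2 changed by -0.41 ± 0.13.

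ISG15 is a ubiquitin-like protein that is induced by interferon and attached to other proteins. Its gene lies on the plus strand at chr1:948803-949921 (hg19). At 12 h ISG15 had the highest level of the members per length, 203 ± 11.05 TPM (a level per transcript length, mean ± SD, n = 3, on the deposited scale), ahead of IFITM1 at 113 ± 10.6 and IFITM3 at 82.6 ± 2.21, and the lowest was EPSTI1 at 0.380 ± 0.0300. In CPM, ISG15 was at 242, 201 and 208 at 12 h, at 58.1, 57.2 and 57.00 at 24 h and at 87.5, 91.4 and 109 at 48 h. It fell by 24 h (-1.89 ± 0.20, adjusted p = 1.2e-05) and then rose by 48 h (0.73 ± 0.20, adjusted p = 0.0112). HERC6, a ligase of ISG15 in mice, was at 205, 211 and 200.2 CPM at 12 h, 67.2, 66.01 and 62.7 CPM at 24 h and 51.9, 53.5 and 63.4 CPM at 48 h. Its fall to 24 h was -1.64 ± 0.17 (adjusted p = 6.5e-06), and its change from 24 h to 48 h was not called (-0.22 ± 0.17). HERC5, the human ligase, lies beside it and was at 47.7, 51.6 and 56.9 CPM at 12 h and 26.1, 32.1 and 25.7 CPM at 24 h, a fall of -0.88 ± 0.12. USP18, which removes ISG15 and dampens receptor signalling, was at 51.00, 53.8 and 56.96 CPM at 12 h and 13.6, 16.3 and 11.5 CPM at 24 h. The fall of USP18 was -1.90 ± 0.23 (adjusted p = 2.7e-05).

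PARP9, DTX3L and PARP14, of a cluster of genes whose products add ADP-ribose or ubiquitin, fell together. DTX3L was at 194, 222 and 231 CPM at 12 h, 101, 116 and 106 CPM at 24 h and 110.1, 97.7 and 101 CPM at 48 h (-0.99 ± 0.10 to 24 h, adjusted p = 5.7e-06). PARP14 was at 236, 289 and 302 CPM and then 110.5, 130.3 and 105 CPM (-1.25 ± 0.14), and PARP9 changed by -1.17 ± 0.14. PARP9 and DTX3L overlap by 341 bases on opposite strands. Of the 46 members, 22 lie in 9 clusters of neighbours less than 200000 bases apart (hg19). Members of a cluster did not all move by one amount, as the IFIT, IFITM and HERC pairs above show, and these differences between genes were not tested.

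Of the 13 other members, IFI30, a thiol reductase of lysosomes, had the deepest fall. Its level was 14.8, 7.99 and 11.9 CPM at 12 h, 0.315, 0.528 and 0.293 CPM at 24 h and 0.447, 1.39 and 1.06 CPM at 48 h in Ad-GFP. Its lowest library stood on about 4.14 reads, not counting the 1 read added in processing, so the 24 h level is known only loosely. The fitted change of IFI30, -3.16 ± 0.18 (adjusted p = 3.7e-13), is smaller than the ratio of levels because of the added 1 CPM. XAF1, which promotes cell death, was at 125, 124 and 142 CPM at 12 h, 27.7, 30.3 and 23.2 CPM at 24 h and 24.6, 23.3 and 29.4 CPM at 48 h. It fell by 24 h (-2.23 ± 0.19, adjusted p = 1.4e-06) and its change from 24 h to 48 h was -0.07 ± 0.19. TRIM22, an antiviral ubiquitin ligase, was at 273, 277 and 273 CPM at 12 h, 105, 109 and 103 CPM at 24 h and 119.7, 128 and 136 CPM at 48 h. Its change to 24 h was -1.37 ± 0.11 (adjusted p = 3.5e-07), and TRIM5, whose listed span covers it on the opposite strand, changed by -0.52 ± 0.06. EPSTI1, IFI35, IFI44, IFI44L, SAMD9L and SP110 fell as well, by estimates of -0.96, -1.55, -1.64, -2.36, -1.88 and -1.39, and SP110 shares its listed span with SP140 on the opposite strand. LGALS3BP, a secreted glycoprotein, changed least of this group, from 549, 536 and 541 CPM to 328, 296 and 326 CPM (-0.77 ± 0.08).

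**Figure D3:**
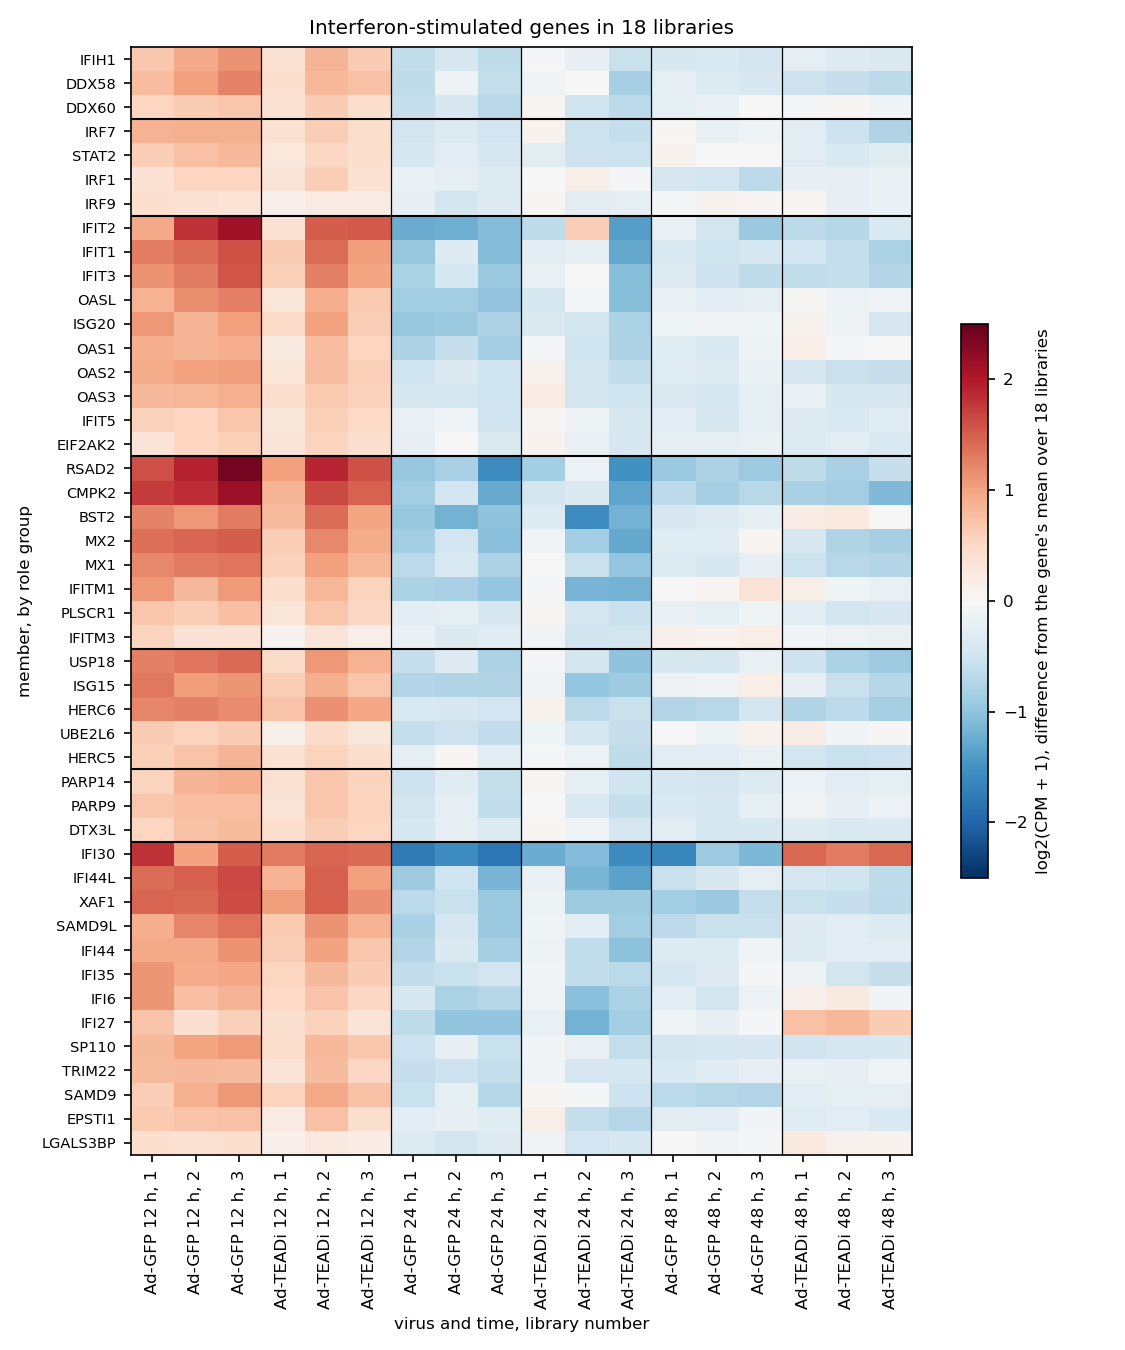
Heat map of the 46 members (rows, by role group) in 18 libraries (columns). Colour gives log2(CPM + 1) as the difference from the gene's mean over the 18 libraries, red above and blue below it. The 12 h columns are red for nearly all members, and IFI30 and IFI27 are red again in the 3 Ad-TEADi libraries at 48 h.

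From 24 h to 48 h in Ad-GFP cells few members were called. None fell and 6 rose (BST2, IFI27, IFITM1, ISG15, ISG20 and OASL), where 4.02% of all genes rose and 2.27% fell. The median log2 change was 0.27, and 20 members had all 48 h libraries above all 24 h libraries, as 28.3% of all genes did. IFITM1 had the largest rise (0.97 ± 0.25, adjusted p = 0.00681), to 94.8, 98.4 and 121 CPM. BST2, the tether that holds budding virus at the cell surface, rose by 0.72 ± 0.24 (adjusted p = 0.0290), but lost the call in 4 of the 6 fits that left out a library (replicate 2 or 3 of either time). BST2 went from 47.1, 42.4 and 48.7 CPM at 12 h and 9.58, 7.93 and 9.13 CPM at 24 h to 14.2, 15.3 and 16.1 CPM. OASL, a relative of the OAS enzymes, went from 23.7, 28.9 and 31.03 CPM at 12 h and 6.42, 6.33 and 5.76 CPM at 24 h to 10.9, 9.99 and 10.5 CPM (0.68 ± 0.21, adjusted p = 0.0166) and lost its call in 1 such fit, without replicate 3 at 24 h. This comparison shares the 24 h libraries with the one from 12 h to 24 h. At 48 h, 43 members were still lower than at 12 h, where 5.25% of all genes were and 8.34% were higher, with a median of -1.18. The 3 exceptions were IRF9, IFITM3 (-0.30 ± 0.10) and LGALS3BP (-0.44 ± 0.08). The median member was at 43.7% of its 12 h CPM at 48 h.

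The members fell after 12 h in Ad-TEADi cells too. From 12 h to 24 h, 42 members fell and none rose, where 2.85% and 2.68% of all genes did, with a median log2 change of -0.96. The 4 not called were IRF1, IRF9, IFITM3 and LGALS3BP, each lower by less than 1.5-fold. Left out in turn, the libraries gave 36 to 44 falls, with 44 without replicate 1 at 24 h and 43 without replicate 1 at 12 h. The fibroblast markers summed to 24.1 to 25.7 CPM at 24 h and 36.4 to 39.4 CPM at 12 h, the immune markers to 25.2 to 28.2 CPM and 31.2 to 37.6 CPM, and the keratinocyte markers to 24790 to 26490 CPM and 18287 to 18634 CPM. Their part in this fall was not tested. The groups did not overlap for 45 members, as for 19.7% of all genes. RSAD2 went from 34.1, 63.5 and 50.5 CPM to 8.53, 14.5 and 5.01 CPM (-2.35 ± 0.33, adjusted p = 9.8e-05). MX1 went from 513, 697 and 609 CPM to 346, 235 and 175 CPM (-1.31 ± 0.20, adjusted p = 1.7e-04). For both genes the 24 h libraries lay wholly below those of 12 h. ISG15 went from 148, 183 and 158 CPM to 90.7, 49.2 and 51.5 CPM (-1.39 ± 0.20, adjusted p = 1.3e-04). Its replicate 1 at 24 h was the highest, as for most members.

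The other members with results above are given here in the Ad-TEADi libraries. Of the sensors, IFIH1 was at 76.9, 106 and 91.3 CPM at 12 h, 57.5, 50.5 and 39.5 CPM at 24 h and 49.5, 46.3 and 45.1 CPM at 48 h (-0.89 ± 0.15 to 24 h). DDX58 was at 117, 155 and 147 CPM at 12 h, 82.6, 86.5 and 48.7 CPM at 24 h and 61.04, 57.9 and 54.8 CPM at 48 h (-0.97 ± 0.21). DDX60 was at 133, 162 and 140.03 CPM at 12 h, 108, 73.9 and 65.5 CPM at 24 h and 101, 106 and 99.2 CPM at 48 h (-0.84 ± 0.15). All 3 sensors fell to 24 h as in Ad-GFP. Of the transcription factors, IRF7 was at 51.4, 60.6 and 53.4 CPM at 12 h, 41.6, 26.7 and 25.5 CPM at 24 h and 32.4, 26.9 and 22.9 CPM at 48 h (-0.83 ± 0.16) and fell. STAT2 was at 91.9, 76.99 and 76.5 CPM at 24 h (-0.84 ± 0.07). IRF9 was at 59.5, 62.9 and 62.4 CPM at 12 h, 56.3, 45.2 and 45.4 CPM at 24 h and 56.5, 46.8 and 48.2 CPM at 48 h (-0.33 ± 0.08), and IRF1 was at 40.9, 50.5 and 43.2 CPM at 12 h (-0.41 ± 0.07). Neither of these last fell by 1.5-fold.

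Among the effectors in Ad-TEADi, OAS2 was at 353, 239 and 216 CPM at 24 h and 246, 224 and 219.9 CPM at 48 h (-0.88 ± 0.16 to 24 h). IFIT5 was at 47.2, 59.03 and 55.5 CPM at 12 h, 39.4, 35.6 and 29.3 CPM at 24 h and 30.96, 29.5 and 31.3 CPM at 48 h (-0.62 ± 0.11). CMPK2 was at 29.3, 51.8 and 46.02 CPM at 12 h, 11.4, 12.2 and 5.83 CPM at 24 h and 8.71, 8.22 and 6.84 CPM at 48 h (-2.03 ± 0.28). These 3 genes fell, CMPK2 the most. RSAD2 was at 9.99, 8.75 and 10.5 CPM and MX1 at 235, 212 and 205 CPM at 48 h. OASL was at 15.7, 24.2 and 20.05 CPM at 12 h, 9.20, 11.9 and 5.42 CPM at 24 h and 12.7, 11.3 and 11.7 CPM at 48 h (-1.13 ± 0.21). ISG20 was at 10.9, 9.24 and 7.34 CPM at 48 h. None of these 4 was called between 24 h and 48 h. OAS1 was at 81.4, 58.4 and 48.1 CPM at 24 h in Ad-TEADi and 48.3, 55.5 and 45.9 CPM in Ad-GFP, and fell in both. BST2 was at 34.4, 52.2 and 39.1 CPM and IFITM1 at 128, 171 and 141 CPM at 12 h in Ad-TEADi. IFITM1 was at 93.3, 41.9 and 41.6 CPM at 24 h.

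In the ISG15 system, ISG15 itself was at 84.02, 65.3 and 58.5 CPM at 48 h in Ad-TEADi. HERC6 was at 145, 194 and 171 CPM at 12 h, 93.3, 55.2 and 58.7 CPM at 24 h and 51.7, 55.5 and 48.8 CPM at 48 h (-1.32 ± 0.17 to 24 h). HERC5 was at 40.9, 46.3 and 42.6 CPM at 12 h, 30.1, 28.2 and 19.7 CPM at 24 h and 22.2, 20.8 and 21.5 CPM at 48 h (-0.73 ± 0.12). Both ligase genes fell. USP18 was at 28.7, 45.1 and 38.5 CPM at 12 h, 20.3, 14.9 and 9.79 CPM at 24 h and 14.3, 11.6 and 10.5 CPM at 48 h (-1.30 ± 0.23). UBE2L6 was at 85.6, 107 and 94.8 CPM at 12 h, 71.8, 56.9 and 51.7 CPM at 24 h and 87.5, 73.1 and 79.4 CPM at 48 h in Ad-TEADi (-0.67 ± 0.11). It was at 119.97, 114 and 119.8 CPM at 12 h, 50.9, 53.3 and 50.1 CPM at 24 h and 76.2, 71.04 and 83.7 CPM at 48 h in Ad-GFP (-1.18 ± 0.11). USP18 and UBE2L6 also fell to 24 h in both viruses. In Ad-GFP at 48 h, HERC5 was at 25.8, 25.9 and 27.6 CPM, USP18 at 15.4, 15.4 and 18.1 CPM and IFIT5 at 31.7, 29.1 and 33.2 CPM, all 3 lower than at 12 h.

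DTX3L was at 179, 205 and 196 CPM at 12 h, 139, 124 and 100.1 CPM at 24 h and 106, 102 and 103 CPM at 48 h in Ad-TEADi (-0.68 ± 0.10 to 24 h). PARP14 was at 209, 259 and 236 CPM at 12 h, 168, 135 and 112 CPM at 24 h and 144, 133 and 137 CPM at 48 h (-0.77 ± 0.14). PARP9 was at 114, 148 and 134 CPM at 12 h, 92.4, 69.4 and 60.6 CPM at 24 h and 85.8, 79.5 and 81.8 CPM at 48 h (-0.84 ± 0.14). The neighbours fell together in this virus too. In Ad-GFP, PARP9 was at 148, 153 and 155 CPM at 12 h, 66.4, 76.7 and 58.9 CPM at 24 h and 69.97, 67.9 and 76.6 CPM at 48 h, and PARP14 was at 119, 117 and 126 CPM at 48 h. XAF1 was at 93.2, 129 and 99.9 CPM at 12 h, 40.96, 23.7 and 23.8 CPM at 24 h and 30.4, 29.9 and 28.4 CPM at 48 h in Ad-TEADi (-1.86 ± 0.19). TRIM22 was at 195, 271 and 223 CPM at 12 h, 147, 117 and 116 CPM at 24 h and 137, 136 and 145 CPM at 48 h (-0.85 ± 0.11). Both fell to 24 h. LGALS3BP was at 446, 485 and 465 CPM at 12 h, 385, 293 and 308 CPM at 24 h and 484, 439 and 437 CPM at 48 h in Ad-TEADi (-0.51 ± 0.08) and at 409.5, 383 and 401 CPM at 48 h in Ad-GFP. IFI6 was at 296, 343 and 301 CPM at 12 h in Ad-TEADi. In Ad-GFP, IFI6 was at 451, 353 and 377 CPM at 12 h, 158, 121 and 128 CPM at 24 h and 175, 153 and 189 CPM at 48 h (-1.53 ± 0.20), and IRF9 was at 72.7, 69.6 and 69.4 CPM at 12 h, 47.03, 39.4 and 43.3 CPM at 24 h and 52.96, 58.00 and 56.9 CPM at 48 h.

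By 48 h, 37 members had fallen in Ad-TEADi from 12 h, where 11.9% of all genes had and 14.3% had risen, and the median was -0.91. The estimates of IFI27 (0.31) and IFI30 (0.00) were not below 0. Between 24 h and 48 h no member fell and 5 rose (BST2, IFI27, IFI30, IFI6 and IFITM1), where 8.2% of all genes rose and 7.16% fell. The median over the members was 0.05, and it was 0.19 without replicate 1 at 24 h, 0.00 without replicate 2 at 24 h, -0.13 without replicate 3 at 24 h and -0.03 without replicate 1 at 48 h, so its sign depends on the library left out. Without replicate 1 at 24 h, 8 members rose, IFI44L, LGALS3BP and OAS1 with them. IFI30 and IFI27 rose most, as given below. BST2 rose from 15.1, 5.84 and 7.99 CPM to 22.05, 23.1 and 19.13 CPM (1.17 ± 0.24, adjusted p = 0.00115), with all 48 h libraries above all 24 h ones. IFI6, a mitochondrial protein that protects cells from death, rose from 198, 102 and 121 CPM to 228, 244 and 199.6 CPM (0.72 ± 0.20, adjusted p = 0.00847), a call lost without replicate 2 at 24 h (0.52 on the log2 scale). IFITM1 went to 106, 88.2 and 83.6 CPM (0.74 ± 0.25, adjusted p = 0.0234). Its call was lost in 3 of 6 fits, without replicate 2 or 3 at 24 h or replicate 1 at 48 h.

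The viruses were then compared at each time. At 12 h all 46 members were lower in Ad-TEADi by estimate, with a median of -0.29 against 0.00 over all genes, but none was called by limma in either direction. Among all genes 0.0298% were called lower and 0.0149% higher at 12 h. At an unadjusted p under 0.05 there were 14 of 46 members, and 18.2% of all genes. For 19 members all Ad-TEADi libraries were below all Ad-GFP libraries, a separation seen in 11% of all genes. STAT2 alone passed the adjusted p, as did 0.544% of all genes in this direction. It was at 134, 159 and 149 CPM in Ad-TEADi against 171, 184 and 196 CPM in Ad-GFP (-0.32 ± 0.07, adjusted p = 0.0384). LGALS3BP (-0.22 ± 0.08, adjusted p = 0.162), UBE2L6, the conjugating enzyme of ISG15 (-0.30 ± 0.11, 0.172), and OAS2 (-0.43 ± 0.16, 0.178) came next. OAS2 was at 409, 563 and 501 CPM in Ad-TEADi, with replicate 1 lowest and replicate 2 nearest to the Ad-GFP libraries. Without replicate 1 of Ad-TEADi the median was -0.19 and 44 members were negative.

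At 24 h no member was called, where 0.626% of all genes were lower and 1.16% higher in Ad-TEADi, and 5 of 46 members had an unadjusted p under 0.05, as did 30% of all genes. The estimate was above 0 for 40 members, with a median of 0.13. That sign rested on replicate 1 of Ad-TEADi, without which the median was -0.04 and 25 members were negative. Without replicate 3 of Ad-TEADi, OASL was called higher. IRF1 passed the adjusted p but not the fold, where 9.91% of all genes passed the adjusted p in this direction. It was at 32.8, 36.3 and 31.6 CPM in Ad-TEADi against 29.1, 27.7 and 26.1 CPM in Ad-GFP (0.27 ± 0.07, adjusted p = 0.00911). All 3 Ad-TEADi libraries of IRF1 were above all 3 Ad-GFP libraries. ISG20 (0.34 ± 0.13, adjusted p = 0.0640), IFI30 (0.40 ± 0.18, 0.122) and IRF9 (0.17 ± 0.08, 0.128) did not pass.

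At 48 h IFI30 and IFI27 were higher in Ad-TEADi and no member was lower, where 6.27% and 6.3% of all genes were. The median over the members was -0.05, and 27 estimates were below 0. IFI30 was at 10.1, 11.4 and 11.03 CPM in Ad-TEADi at 12 h, at 0.902, 1.12 and 0.494 CPM at 24 h and at 11.2, 10.1 and 11.2 CPM at 48 h. Its 48 h libraries overlapped the 12 h ones (0.00 ± 0.18) and had risen from 24 h by 2.70 ± 0.18 on the log2 scale (adjusted p = 8.0e-13). Against Ad-GFP at 48 h, 0.447, 1.39 and 1.06 CPM, IFI30 was higher by 2.62 ± 0.18 (adjusted p = 2.1e-12). IFI30 (chr19:18283972-18288928, plus strand, hg19) lies within the listed span of PIK3R2 on the same strand, so reads of the pair may be shared. PIK3R2 changed by -0.12 ± 0.06 in this comparison (adjusted p = 0.115), and the part of shared reads was not tested. Among markers of other cell types, the immune markers summed to 49.0 to 58.2 CPM in Ad-TEADi and 33.8 to 39.6 CPM in Ad-GFP at 48 h, nearly all of it CD68, a lysosomal protein, and CD14 was at 1.18, 1.11 and 1.33 CPM against 0.253, 0.173 and 0.133 CPM. The fibroblast markers summed to 48.2 to 50.4 CPM against 19.5 to 23.8 CPM. Their part in the rise of IFI30 was not tested.

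IFI27, a mitochondrial protein among the most interferon-responsive genes, lies at chr14:94571182-94583034 on the plus strand (hg19). It was at 145, 163 and 137 CPM in Ad-TEADi at 12 h, at 96.5, 48.1 and 59.5 CPM at 24 h and at 184, 197 and 170.4 CPM at 48 h. In Ad-GFP it was at 179.6, 146 and 167 CPM, 70.4, 54.8 and 55.00 CPM and 102, 94.9 and 108 CPM at the same times. At 48 h all Ad-TEADi libraries were above all Ad-GFP libraries, by 0.85 ± 0.20 (adjusted p = 0.00302). IFI30 and IFI27 kept this call whichever library was left out, and without replicate 1 of Ad-TEADi 1 member was called lower. STAT2 was lower in Ad-TEADi, 92.4, 85.7 and 89.8 CPM against 118, 111 and 110.5 CPM (-0.34 ± 0.07, adjusted p = 4.9e-04), and IRF7 differed by -0.43 ± 0.16 (0.0407), both under 1.5-fold. IRF1 was at 28.3, 28.2 and 28.9 CPM against 24.1, 23.3 and 20.5 CPM (0.32 ± 0.07, adjusted p = 5.2e-04) and SAMD9, a restriction factor of poxviruses, differed by 0.46 ± 0.16 (0.0326), also under 1.5-fold. By adjusted p alone 27.8% of all genes were lower and 22.7% higher. For 12 members all Ad-TEADi libraries were lower and for 13 higher, against 31.9% and 26.8% of all genes.

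**Figure D4:**
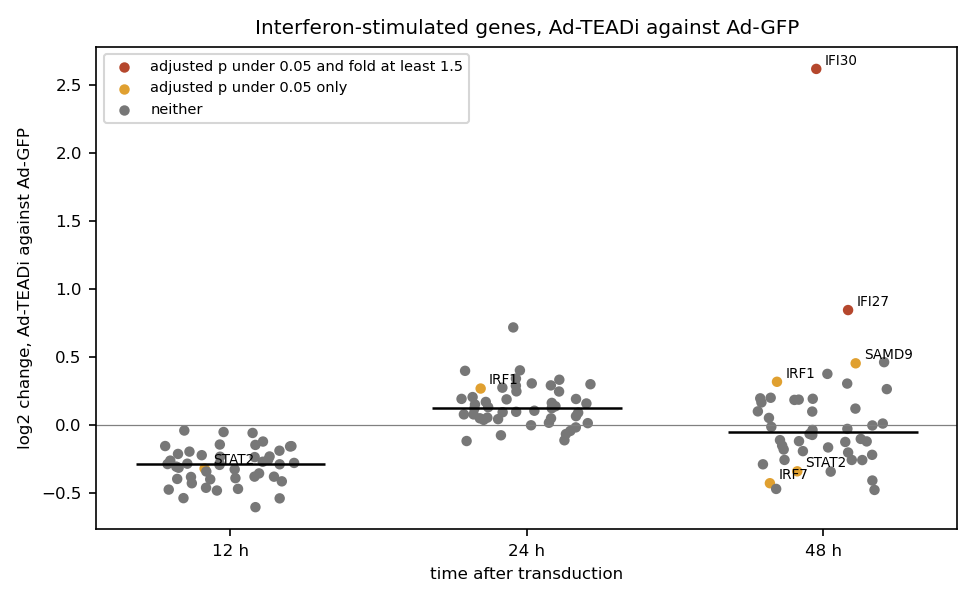
Log2 change of the 46 members in Ad-TEADi against Ad-GFP at 12, 24 and 48 h, each dot a member and each line the median. Names mark members with an adjusted p under 0.05, and red dots those also at least 1.5-fold changed. The dots lie below 0 at 12 h, mostly above it at 24 h and on both sides at 48 h, with IFI30 and IFI27 highest.

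The difference between the viruses in the change over time was tested as an interaction. For the change from 12 h to 48 h, 3 members differed, all higher in Ad-TEADi, where 6.19% of all genes did, and none was lower, where 5.97% were. They were IFI30 (2.67 ± 0.25, adjusted p = 3.4e-09), IFI27 (0.99 ± 0.28, 0.0149) and OAS1 (0.68 ± 0.25, 0.0463). OAS1 was at 157, 151 and 157 CPM in Ad-GFP at 12 h and 66.9, 63.9 and 76.6 CPM at 48 h, and at 97.3, 144 and 121 CPM and 94.1, 80.01 and 83.1 CPM in Ad-TEADi. Its call was lost in 10 of the 12 fits that left out a library, kept only without replicate 2 of Ad-TEADi at 12 h or replicate 3 of Ad-GFP at 48 h, with adjusted p up to 0.109. IRF1 (0.36 ± 0.11, adjusted p = 0.00751) and LGALS3BP (0.41 ± 0.11, 0.00908) passed the adjusted p only, which 15.5% of all genes did in this direction. The estimate of this difference was above 0 for 39 members, with a median of 0.24. Without replicate 1 of Ad-TEADi at 12 h the median was 0.13 and 36 members were above 0.

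For the change from 12 h to 24 h, the estimate was above 0 for all 46 members, a smaller fall in Ad-TEADi, with a median of 0.45. Without replicate 1 of Ad-TEADi at 24 h the median was 0.26 and 41 members were above 0. Without replicate 1 of Ad-TEADi at 12 h it was 0.37, with all 46 above 0. This contrast uses the same libraries as the comparisons above. Only ISG20 was called (0.62 ± 0.18, adjusted p = 0.0274), where 0.969% of all genes were called higher and 0.529% lower, and 14 of 46 members had an unadjusted p under 0.05, as did 24.6% of all genes. ISG20 was at 14.7, 21.5 and 16.1 CPM at 12 h and 7.71, 7.16 and 5.49 CPM at 24 h in Ad-TEADi. By adjusted p alone IRF9 (0.37 ± 0.11, adjusted p = 0.0318) and TRIM22 (0.52 ± 0.15, 0.0466) passed as well, where 5.64% of all genes did. The ISG20 call was lost in 8 of 12 fits that left out a library, among them the one without replicate 1 of Ad-TEADi at 24 h (0.54, adjusted p = 0.0662), which left no member called. Without replicate 3 of Ad-TEADi at 24 h 7 members were called, and without replicate 2 of Ad-TEADi at 12 h 3 were.

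**Figure D5:**
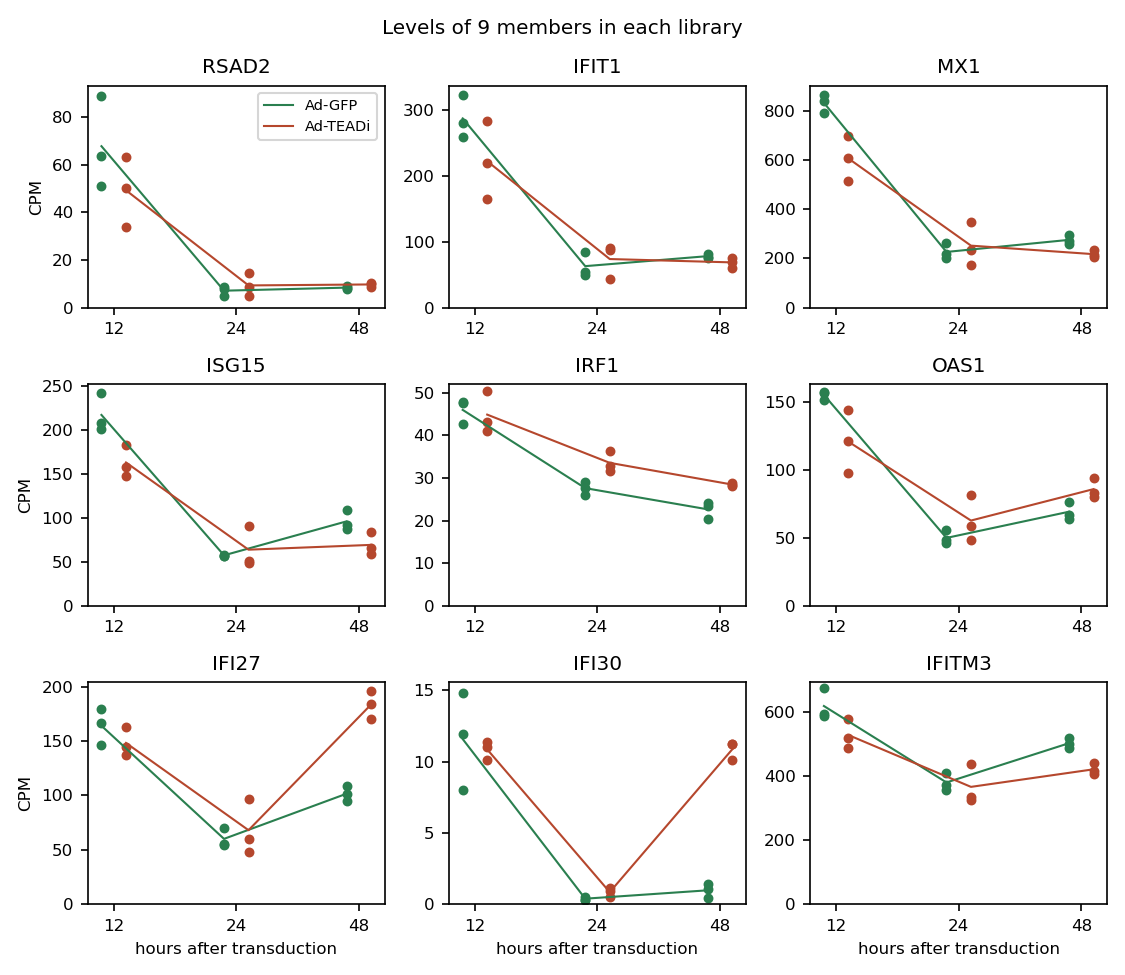
CPM of 9 members in each library (dots) and group means (lines) against hours after transduction, for Ad-GFP and Ad-TEADi, with each axis starting at 0. RSAD2, IFIT1, MX1 and ISG15 have every later library below every 12 h library with both viruses, whereas IFI30 and IFI27 in Ad-TEADi are high again at 48 h.

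Members with and without the ISRE letters were set side by side as a description. In Ad-GFP from 12 h to 24 h the median change was -1.40 over the 26 members with a match, from -3.08 to -0.68, and -1.55 over the 13 without one, from -3.16 to -0.70. In Ad-TEADi the medians were -0.90 and -0.97. IFI27 and IFI6, each with 2 matches in the window shown above, and IFI30, with none, all rose in Ad-TEADi from 24 h to 48 h. The ranges of members with and without a match overlapped nearly throughout.

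Other genes of the pathway were followed in a list of 107, of which 85 were tested. Of these, 9 were flagged as of uncertain copies, by a position off the main chromosomes or values over 16-fold apart within a group. In Ad-GFP from 12 h to 24 h, 34 of the 85 fell and none rose, and to 48 h 33 fell and 2 rose. Of 8 interferon genes searched only IFNE was tested, at about 1 CPM in Ad-GFP at 12 h (1.03, 0.749 and 0.726). None of 9 receptor and kinase genes fell, and IFNGR2, a chain of the interferon gamma receptor, rose from 41.8, 38.6 and 40.6 CPM at 12 h to 80.99, 81.5 and 79.9 CPM at 48 h (0.98 ± 0.06, adjusted p = 8.1e-16). The chemokine genes CXCL10 (-2.15 ± 0.37), CXCL11 (-2.37 ± 0.36) and CCL5 (-1.19 ± 0.14) fell, all 3 tested. CXCL10, which draws T cells, was at 77.97, 117 and 145 CPM at 12 h and 17.3, 31.8 and 24.9 CPM at 24 h, with its groups far apart. Of 35 further effectors, 22 fell, among them GBP1, a GTPase that acts on pathogen vacuoles (-1.50 ± 0.08), PML (-1.01 ± 0.05) and TRIM21 (-0.94 ± 0.07). In antigen presentation NLRC5, the activator of class I genes, fell from 29.03, 37.1 and 40.5 CPM to 9.83, 13.1 and 9.93 CPM (-1.61 ± 0.14, adjusted p = 8.8e-08).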

How the data were processed

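Polyadenylated RNA of 18 libraries in 6 groups was sequenced with a TruSeq mRNA kit. Per the submitters' processing notes, reads were handled with Partek 8.0.19.0819, with STAR 2.5.1 on build hg19 and with Trimmomatic 0.36. The deposited CPM values are TMM normalized gene values that the authors made in Partek, with 1 read added to each estimated count. The deposited TPM values were also made by the authors in Partek, and sum to 98913 to 99722 in a library, so they are on a scale of their own. The deposited table also holds the authors' p-values, q-values, ratios, fold changes and group means of their comparisons, which were not used. No per-sample column was left unused (0).

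The members, lists and tests were chosen with earlier results of these data known. Log2(CPM + 1) values of the 13417 genes at or above 1 in at least 3 libraries were fitted with limma 3.58.1 (R 4.3.3; trend and robust empirical Bayes, 1 mean for each group, all 18 libraries sharing the spread), with Benjamini-Hochberg adjustment over all genes tested. The study's own Partek test was not run. Differences between the viruses over time were interaction contrasts of that fit. Reads estimated from the CPM steps were within 0.01 of a whole number for 73.6% to 76.5% of values under 50 reads in a library, so no count model was used. Tables and plots were made with Python 3.11.15, pandas 2.3.3, numpy 2.4.6 and matplotlib 3.10.9. On simulated data with known changes, the fit called 100% of 2-fold and 45% of 1.5-fold changes, with 0 false calls. The simulated libraries had the same spread setting for all genes and no shifts between libraries, so these shares may not hold for the real ones.

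Full values in all libraries were given by rule for the 3 members of each role group with the smallest adjusted p in Ad-GFP at 48 h against 12 h and the 4 members with the smallest adjusted p in each comparison of viruses and each difference of changes. Members called in the direction opposite to most, and up to 4 other pathway genes for each role, were also named by rule. Other members named to account for the list, as neighbours or as examples were chosen after their values were seen. Alternatives were other pseudocounts (0.1 and 5), filters, scalings, thresholds, fits of only the groups compared, a replicate block and leaving out each library. Some items are not reported here. Strandedness of the counting is not stated in these sources.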

Additional observations from a re-analysis of the deposited data

Results flagged for a closer look

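These results differed between the viruses by the interaction test of limma, as the change in Ad-TEADi less that in Ad-GFP on the log2 scale, with an adjusted p under 0.05 and a difference of at least 1.5-fold. For the change from 12 h to 48 h, the members were IFI30 (2.67), IFI27 (0.99) and OAS1 (0.68). Of all genes, 6.19% were called higher and 5.97% lower, so the share of members called was near that of all genes. OAS1 kept its call in only 2 of the 12 fits that left out a library. Of other pathway genes, the death ligand TNFSF10 differed by 1.55, the chemokine CCL5 by 1.35, NLRC5 by 0.68 and the RNA sensor TLR3 by 0.64. SLFN11, a restriction factor, differed by -0.94 and CD274, the checkpoint ligand PD-L1, by -1.54. For the change from 12 h to 24 h, the member was ISG20 (0.62), and of other pathway genes TNFSF10 differed by 1.02, NLRC5 by 0.76, the feedback inhibitor SOCS1 by 0.70 and CD274 by -0.66. Of all genes, 0.969% were called higher and 0.529% lower. ISG20 kept its call in only 4 of the 12 fits that left out a library.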

How the results depend on the processing

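No count of called members and no single named gene turned its direction under the alternatives run, but medians over the members near 0 did. Without replicate 1 of Ad-TEADi at 24 h the median between viruses at 24 h was -0.04 in place of 0.13, and without replicate 3 of Ad-TEADi at 24 h that in Ad-TEADi from 24 h to 48 h was -0.13 in place of 0.05. Among the values of single named genes, 1371 kept direction and side of the threshold, 71 were no longer past it and 11 were newly past it. Median-centred scaling moved libraries by at most 0.03 on the log2 scale, and scaling to equal totals by -0.07 to 0.08, the highest at 12 h and the lowest at 48 h. In Ad-GFP from 24 h to 48 h, 3 members were called with a pseudocount of 5, 1 with TPM, 15 by adjusted p alone and 0 at adjusted p under 0.01 with 2-fold. At that stricter limit, 21 were called in Ad-TEADi from 12 h to 24 h, 3 from 24 h to 48 h and 18 from 12 h to 48 h, 1 at 48 h between viruses, 1 for the difference over 48 h and 0 for that over 24 h. By adjusted p alone, 10 were called in Ad-TEADi from 24 h to 48 h, 1 at 12 h, 1 at 24 h and 6 at 48 h between viruses, and 5 and 3 for the differences over 48 h and 24 h. With a mean of at least 10, 1 was called at 48 h between viruses, because IFI30 lay below that mean and was not in that fit. Fits of only the groups compared called 2 in Ad-TEADi from 24 h to 48 h and 6 for the difference over 48 h. For the difference over 24 h, a pseudocount of 5, TPM, and no trend or robust fit each called 0. With TPM the level of the members was 0.74 in Ad-GFP at 12 h and -0.38 at 24 h. Leaving out a library gave 46 to 46, 4 to 7 and 42 to 43 calls in Ad-GFP (24 h against 12 h, 48 h against 24 h, 48 h against 12 h), 36 to 44, 4 to 8 and 32 to 38 in Ad-TEADi, 0 to 0, 0 to 1 and 2 to 3 between viruses at 12, 24 and 48 h, and 2 to 3 and 0 to 7 for the differences over 48 h and 24 h. With the replicate number as a block, counts were equal except 2 in place of 3 for the difference over 48 h, where OAS1 had an adjusted p of 0.0669. Only 6 of 27 same-numbered pairs correlated above 0.1, so the libraries share a number and no pairing was used. The depth, with 4.14 reads for IFI30 in its lowest library, limits values near 0.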

Other observations

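Some pathway genes outside the members differed between the viruses at 48 h. TNFSF10, a ligand that triggers cell death, was at 39.3, 37.9 and 37.8 CPM in Ad-TEADi and 13.9, 13.4 and 13.3 CPM in Ad-GFP (1.44 ± 0.19, adjusted p = 3.1e-05). CD274 was at 7.88, 8.09 and 9.18 CPM against 30.03, 31.1 and 27.98 CPM (-1.71 ± 0.09, adjusted p = 4.9e-17). In both genes the groups did not overlap, TNFSF10 being higher and CD274 lower in Ad-TEADi. Of the 76 pathway genes tested without uncertain copies, 5 were higher and 3 lower at 48 h, shares close to or below the 6.27% and 6.3% of all genes. These genes were chosen after their values were seen.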
